A study of Homo sapiens with 12 samples.

Results

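The S100, SPRR and cornified envelope genes were described in the oral squamous cell carcinoma (OSCC) lines HN6 and HN30 after knockdown of FAT1. The set held every gene whose symbol begins with S100A, SPRR or LCE, and 27 listed genes that include envelope proteins, transglutaminases, epidermal proteases and their inhibitors, and LCN2. It came to 59 of the 19225 genes in the count table. Of these, 47 lie on chromosome 1, between S100A10 (chr1:151982915-151993859, GRCh38, minus strand) and S100A1 (chr1:153627926-153632039, plus strand), and 12 lie on other chromosomes.

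HN6 and HN30 are established human lines of squamous carcinoma. Cells of each line received a scrambled siRNA (NC), siFAT1-1 or siFAT1-2, both directed against FAT1, and poly(A) RNA was sequenced 24 h after transfection. Each of the 6 conditions had 2 biological repeats, titled as a first and a second time, which gives 12 libraries. The sample titles call the knockdown groups short hairpins while the other labels call them siRNAs, and the libraries stand for 1 time point in 2 lines. The depth was 26430049 to 47639010 counts per library, so 3 counts, taken as the limit that a count of 0 allows, corresponded to 0.0679 to 0.112 CPM (normalised read counts scaled to the library size), counting error only. FAT1 had 56.8 and 66.7 CPM in the HN6 NC libraries and 7.61 to 21.4 CPM after FAT1 KD, and 13.6 and 14.7 against 4.86 to 10.8 CPM in HN30. All 8 markers fixed for squamous epithelium were detected in HN6 and 7 of 8 in HN30, where KRT14 was not. Of 6 fibroblast markers, COL1A1, LUM and PDGFRB were detected in HN6 and COL1A1 and PDGFRB in HN30. Their sum was 74.1 CPM in HN6 NC against 69.2 to 164 CPM after KD, and 12.5 and 21.9 against 31.8 to 50 CPM in HN30, where the groups did not overlap, and their part in the KD results was not tested.

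The cornified envelope is a protein shell that replaces the plasma membrane of keratinocytes as they differentiate. Involucrin (IVL), envoplakin (EVPL) and periplakin (PPL) form its scaffold, transglutaminases such as TGM1 cross-link it, and small proline-rich (SPRR) and late cornified envelope (LCE) proteins reinforce it. S100 proteins are small calcium sensors, many of them encoded beside the SPRR and LCE genes in the epidermal differentiation complex. S100A7, S100A8, S100A9, elafin (PI3) and lipocalin 2 (LCN2) are also made by epithelia in inflammation.

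Some members are near-identical copies, and the reads of such copies are not fully assigned to 1 gene by sequence. The coding sequences of SPRR2A, SPRR2B, SPRR2D, SPRR2E and SPRR2F each had 216 bases and shared 96.8% to 99.5% of them. A stretch of 30 bases in which they differ, coding bases 178 to 207, is shown to make clear how little separates the copies, with capitals at each base that differs from SPRR2A. On the minus strand of GRCh38 these are at chr1:153056529-153056558, chr1:153070633-153070662, chr1:153040140-153040169, chr1:153093545-153093574 and chr1:153112527-153112556, in that order.
SPRR2A: tccccaccctgccagtcaaagtatccaccg
SPRR2B: tccccaccctgccagCcaaagtatccaccg
SPRR2D: tccccaccctgccagCcaaagtGtccaccC
SPRR2E: tccccaccctgccagCcaaagtGtccaccC
SPRR2F: tccccaccctgccagCcaaagtGtccaccC
SPRR2D, SPRR2E and SPRR2F were identical over these bases. Even so, no 150-base window of the SPRR2D or SPRR2F transcript occurred in another gene. Of all 150-base windows in the SPRR2A and SPRR2B transcripts, 12.3% of each also occurred in another gene, and 4.15% of those of SPRR2E did. Such windows made up 23.2% for S100A13, whose windows recur in an overlapping lncRNA, 10.4% for FLG and 4.25% for KLK5. They made up 0.488% for S100A1 and 96.4% for TGM3. The values of these genes are uncertain, but the shares count exact matches only and do not measure how many reads were misassigned. Strand use in counting was not given, and FLG, KLK5, S100A6, S100A1, S100A13 and SPINK5 overlap genes on the opposite strand.

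The promoters of the members were searched for 4 motifs on both strands, since several members were lower or higher together in the comparisons below. RefSeq promoters, from 250 bases before to 50 after the gene start on GRCh38.p14, were matched for 50 of the 59 members, 26 of them expressed highly enough to be tested. The AP-1 motif TGANTCA was present in 10 of those 26 and in 7.76% of all 27305 promoters. The C/EBP type motif TTGCNNAA was in 4 of 26 against 10.6%, the grainyhead type motif AACNGGTT in 2 of 26 against 1.73%, and an NF-kappa B type motif in 3 of 26 against 6.47%. The AP-1 matches are shown for IVL, SPRR2G and SBSN, which passed a test with a siRNA below, for SPRR1A, which was higher in HN6, and for S100A2 and LCN2, which were higher in HN30. Capitals mark the motif, and each window is written on the strand of its gene.
IVL, chr1:152908414-152908439, plus strand, 123 bases before the start: tgcctgtggTGAGTCAggaaggggtt
SPRR2G, chr1:153151054-153151079, minus strand, 180 bases before the start: tgtcccaagTGAATCActgtgcactt
SBSN, chr19:35528468-35528493, minus strand, 173 bases before the start: ctccatccaTGACTCAccctctcttc
SBSN, chr19:35528366-35528391, minus strand, 71 bases before the start: aggggtaatTGAGTCAtgaggggtgg
SPRR1A, chr1:152983964-152983989, plus strand, 108 bases before the start: atggtagtgTGAGTCAtgtgtgacag
S100A2, chr1:153565880-153565905, minus strand, 52 bases before the start: agtgggctgTGACTCAcaggcatgtc
LCN2, chr9:128149392-128149417, plus strand, 52 bases before the start: ggcaaagaaTGAATCAacccacccta
The motif occurred before genes that were lower with siFAT1-1, lower with siFAT1-2, higher in HN6 and higher in HN30. The genes shown were picked because they hold the motif. It was absent from the matched promoters of S100A9 and SPINK5, which passed with siFAT1-2. No AP-1 match was found for PI3, S100A8 or S100A10, also lower with siFAT1-2, or for KLK5 and S100A7, which differed between the lines. Some of these genes may have had no matched promoter. A match is a description of the sequence and not a bound site.

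S100 genes were the family with the most members detected in both lines, whereas LCE genes were almost silent. With a gene called detected in a line when its mean over the 6 libraries was at least 1 CPM, 17 members were detected in both lines, 5 in HN6 only, 3 in HN30 only and 34 in neither, and 12 of these 34 had no count in any library. Of the 17 S100A genes, 10 were detected in both lines and S100A7 and S100A8 in HN30 only. Of the 10 SPRR genes, SPRR2D was detected in both lines and SPRR1B, SPRR2A and SPRR2G in HN6 only. None of the 18 LCE genes was detected, and 9 had no count. The summed S100A level was 1660 to 2630 CPM in HN6 and 1680 to 2880 CPM in HN30, against 3.99 to 16.8 and 1.01 to 8.27 CPM for the SPRR genes. TGM3, the other transglutaminase, had no count, which says little of its level, since 96.4% of its windows are shared with another gene.

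**Figure D1:**
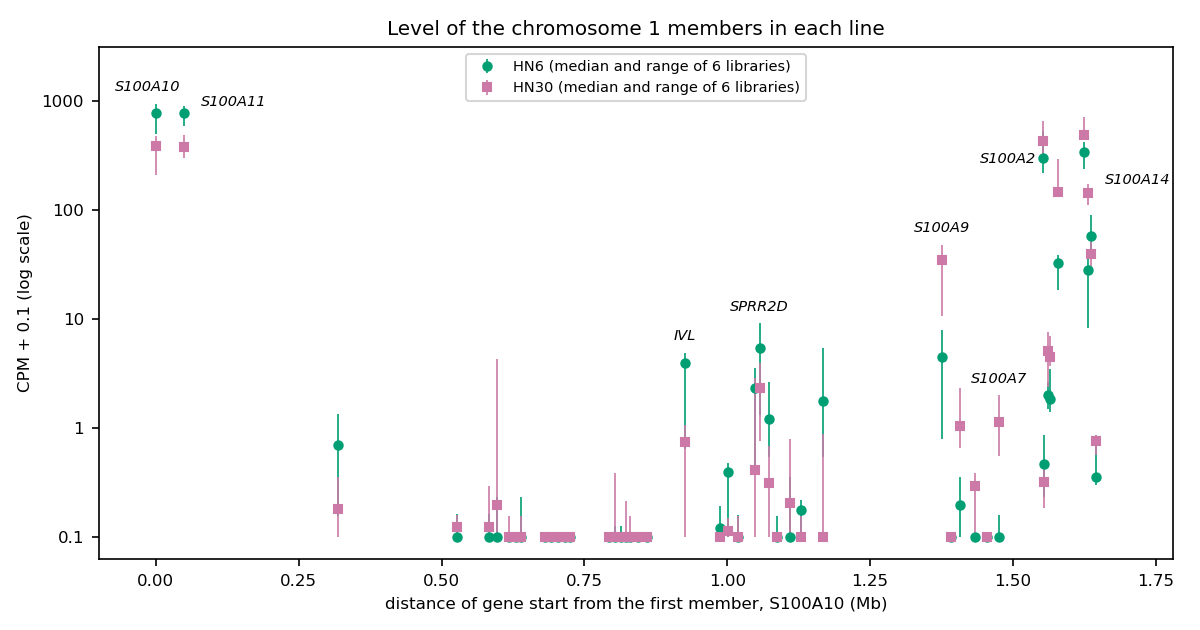
The horizontal axis is the distance of each chromosome 1 member from S100A10 in Mb and the vertical axis its level as CPM + 0.1 on a log scale, with the median (point) and range (line) of the 6 HN6 or 6 HN30 libraries. S100 genes at the ends of the cluster lie highest in both lines, the LCE genes in the middle lie at the bottom, and IVL and SPRR2D lie between them.

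Levels were compared between genes per kb of transcript. In the HN6 NC libraries, S100A11, the annexin partner calgizzarin, was highest at 1550 CPM per kb (1490 and 1620 in the 2 repeats). Next came S100A10, the annexin A2 partner p11, at 1200 (1190 and 1200), S100A6 with repeats of 746 and 912, S100A16 at 350 (339 and 360) and S100A13 at 130. Neighbours among these 5 genes did not overlap in their repeats. KLK5, a serine protease of desquamation, followed at 118 with repeats of 64.0 and 172 that enclosed S100A13, LCN2 had 56.5 (28.6 and 84.3), and S100A2 had 23.9 and 40.1. Neighbours from S100A13 to S100A2 overlapped.

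In the HN30 NC libraries the first 4 places were held by S100A6 at 1120 CPM per kb, S100A11 at 722, S100A10 at 606 and S100A16 at 494, and the ranges of neighbours overlapped. LCN2, a siderophore-binding protein, had 348 (196 and 501), S100A2 had 226 (151 and 302), S100A14 had 115 (105 and 124), and PI3, an elastase inhibitor, had 105 (41.2 and 168). Neighbours overlapped here too, apart from S100A2 and S100A14, and LCN2 lay above S100A14 and PI3 in both repeats. With the length of all exons in place of that of the canonical transcript, S100A13 fell in the HN6 order from place 5 to place 7, and S100A11 stood before S100A6 in HN30.

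**Figure D2:**
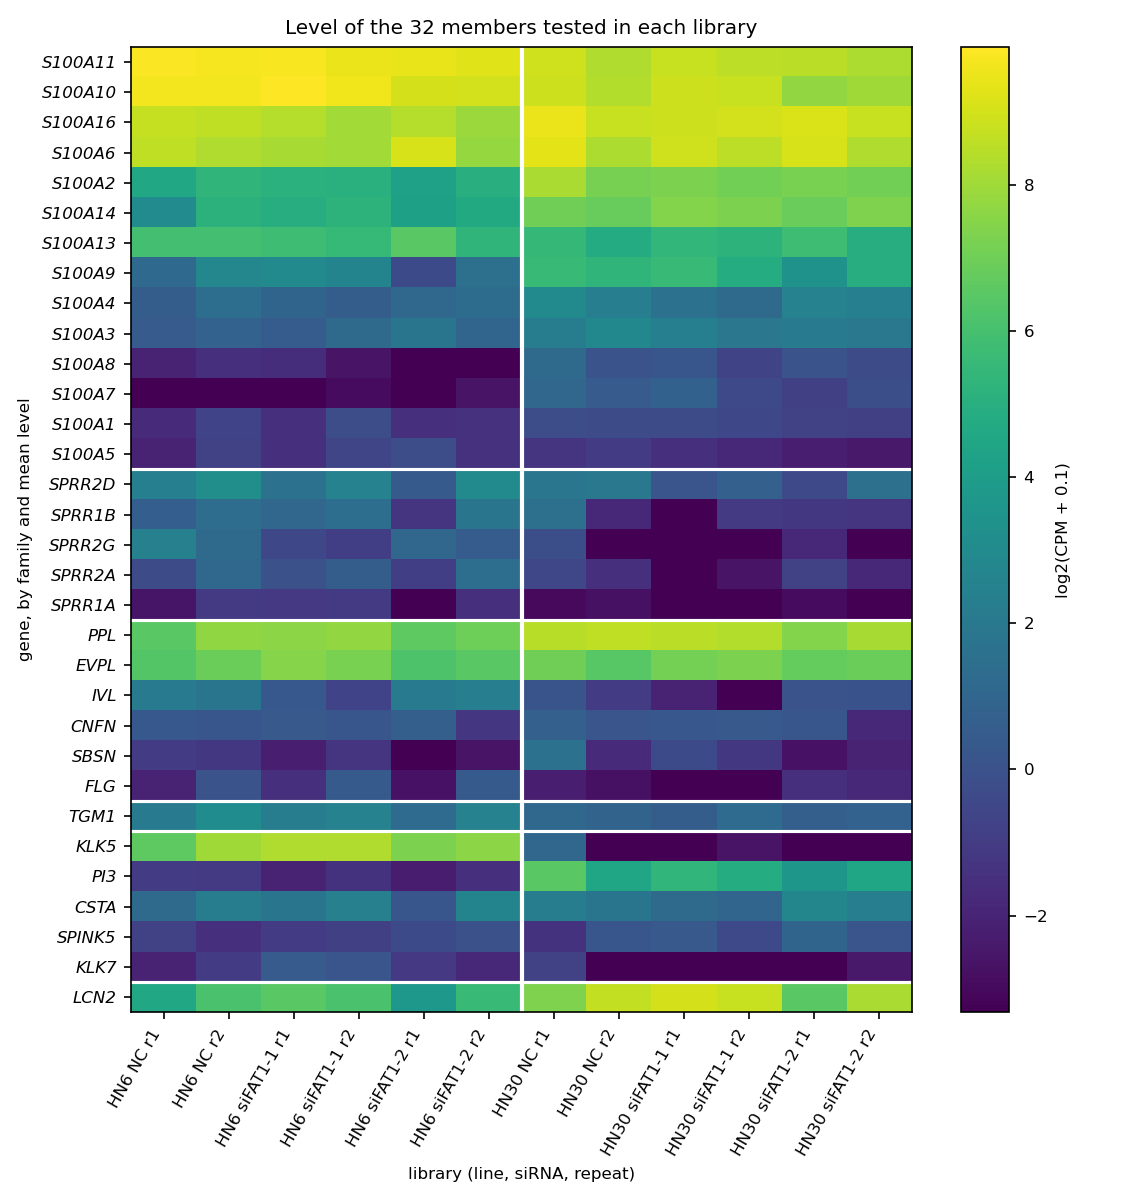
Each row is one of the 32 tested members, by family and mean level, each column one of the 12 libraries, and the colour the level as log2(CPM + 0.1). The left 6 columns (HN6) and the right 6 (HN30) differ in colour for KLK5, PI3, S100A7, S100A8 and S100A9, among others, and the first HN30 column, NC repeat 1, stands out for SBSN, SPRR1B, PI3 and KLK5.

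The lines were set against each other first, since they differed more than the knockdown groups did. HN6 held more RNA of SPRR1A, SPRR2A, SPRR2D, SPRR2G, IVL and KLK5, while HN30 held more of S100A7, S100A8, S100A9, PI3 and LCN2. At an adjusted p under 0.05 together with a log2 fold change beyond 1 in size, 9 of the 32 tested members were higher in HN6 and 10 were higher in HN30, against 15.1% and 16.3% of the 14105 genes tested, 31.4% in all (edgeR's quasi-likelihood test). The test pooled NC and KD libraries, and with the 4 NC libraries alone PI3, S100A2, S100A7 and S100A9 were the 4 members that passed. SPRR1B (2.08 ± 0.86) and KLK7 (2.42 ± 1.09) did not pass with edgeR and passed with limma-voom. The median log2 fold change was -0.06 over the members and 0.0 over all genes tested. All 5 tested SPRR genes had a positive estimate, between 1.31 and 3.96, while 10 of 14 S100A genes had a negative one. Of the SPRR genes too low to be tested, SPRR2E went the other way, with 16 counts in HN6 and 49 in HN30. SPRR2F had 13 and 2 counts, SPRR4 7 and 0, SPRR2B 2 and 0, and SPRR3 2 and 2.

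Among the genes higher in HN6, KLK5 had the largest fold change. Its 6 HN6 libraries held 96.8, 261, 322, 314, 153 and 195 CPM. In HN30, NC repeat 1 held 68 counts (1.92 CPM), siFAT1-1 repeat 2 held 2 counts and the other 4 libraries held none. All HN6 libraries thus lay above all HN30 libraries, with a fitted log2 fold change of 9.80 ± 1.07 (SE), which depends on the prior count, and edgeR's adjusted p = 1.15e-05. SPRR2G had 397 counts over the HN6 libraries and 34 over the HN30 libraries, with a log2 fold change of 3.96 ± 0.84. SPRR1A differed by 3.34 ± 0.93 at levels below 0.4 CPM in both lines, FLG, the filaggrin precursor, by 2.84 ± 0.92, IVL by 2.63 ± 0.43 and SPRR2A by 2.55 ± 0.66. FLG no longer passed when HN6 NC repeat 2 or HN6 siFAT1-2 repeat 2 was left out, which gave adjusted p values of up to 0.0743 in edgeR, and it did not pass with limma-voom (adjusted p = 0.0883).

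The remaining 3 that passed in this direction were TGM1 (1.5 ± 0.28), SPRR2D (1.31 ± 0.46) and S100A10 (1.01 ± 0.12). TGM1 and S100A10 did not overlap between the lines, like KLK5 and S100A11, 4 members against 12.7% of all genes, whereas SPRR2D did. SPRR2D stayed past the thresholds in 7 of 12 fits that left out 1 library, with adjusted p between 0.00591 and 0.118 by edgeR's test, and was lost without HN6 NC repeat 2, HN6 siFAT1-1 repeat 2, HN6 siFAT1-2 repeat 2, or either HN30 siFAT1-1 repeat. S100A10, just past the fold threshold, ran from 0.97 to 1.10 in these fits and fell below it without HN6 siFAT1-1 repeat 1, HN30 NC repeat 2 or HN30 siFAT1-2 repeat 1.

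PI3 showed the largest difference toward HN30. It had 0.409, 0.366, 0.136, 0.286, 0.111 and 0.241 CPM in HN6 and 92.5, 22.7, 40.9, 29.3, 12.6 and 22.5 CPM in HN30. The ranges were far apart, and the log2 fold change was -7.11 ± 0.43 with edgeR's adjusted p = 9.91e-08. S100A7, psoriasin, had 3 counts in all HN6 libraries together and 228 in HN30, a depth-corrected ratio of 78.5 (exact 95% interval 26.5 to 383, counting error only). Its near copy S100A7A had 0 and 34 counts, at least 11.7-fold higher in HN30 against a floor of 3 counts over the HN6 libraries, while S100A7L2 was not detected.

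S100A8 and S100A9, which pair as calprotectin, were both higher in HN30. S100A8 had 0 to 0.254 CPM in HN6 and 0.555 to 2.26 CPM in HN30, and S100A9 had 0.692 to 7.86 and 10.6 to 48.4 CPM. The log2 fold changes were -3.34 ± 0.63 and -3.09 ± 0.41, and neither gene overlapped between the lines. Both genes are abundant in neutrophils and monocytes. Of the 7 leukocyte markers, 2 were detected in HN6 (CD14 and ITGAM) and 1 in HN30 (CD14), with summed levels of 2.47 to 5.86 and 4.70 to 15 CPM, and the pan-leukocyte gene PTPRC was at 0 in all 6 HN6 libraries and at 0.0252 CPM in HN30 NC repeat 2 and 0 in the other HN30 libraries. Their part in the result was not tested.

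LCN2 had 13.1 to 89.8 CPM in HN6 and 91.2 to 521 CPM in HN30, S100A2, a p63 target of basal cells, 18.7 to 39.2 and 133 to 295 CPM, and S100A14 8.32 to 37.4 and 111 to 174 CPM. None of these overlapped, although the LCN2 ranges nearly met, and in all 9 members were higher in every HN30 library, against 13.2% of genes. The log2 fold changes were -2.64 ± 0.41, -2.46 ± 0.23 and -2.48 ± 0.29. S100A3 (-1.28 ± 0.29), S100A4 (-1.22 ± 0.25) and PPL (-1.05 ± 0.20) completed the 10, and PPL dropped under the fold threshold in 4 of 12 fits that left out 1 library, those without HN6 NC repeat 1, HN6 siFAT1-2 repeat 1, HN30 NC repeat 2 or HN30 siFAT1-2 repeat 2.

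**Figure D3:**
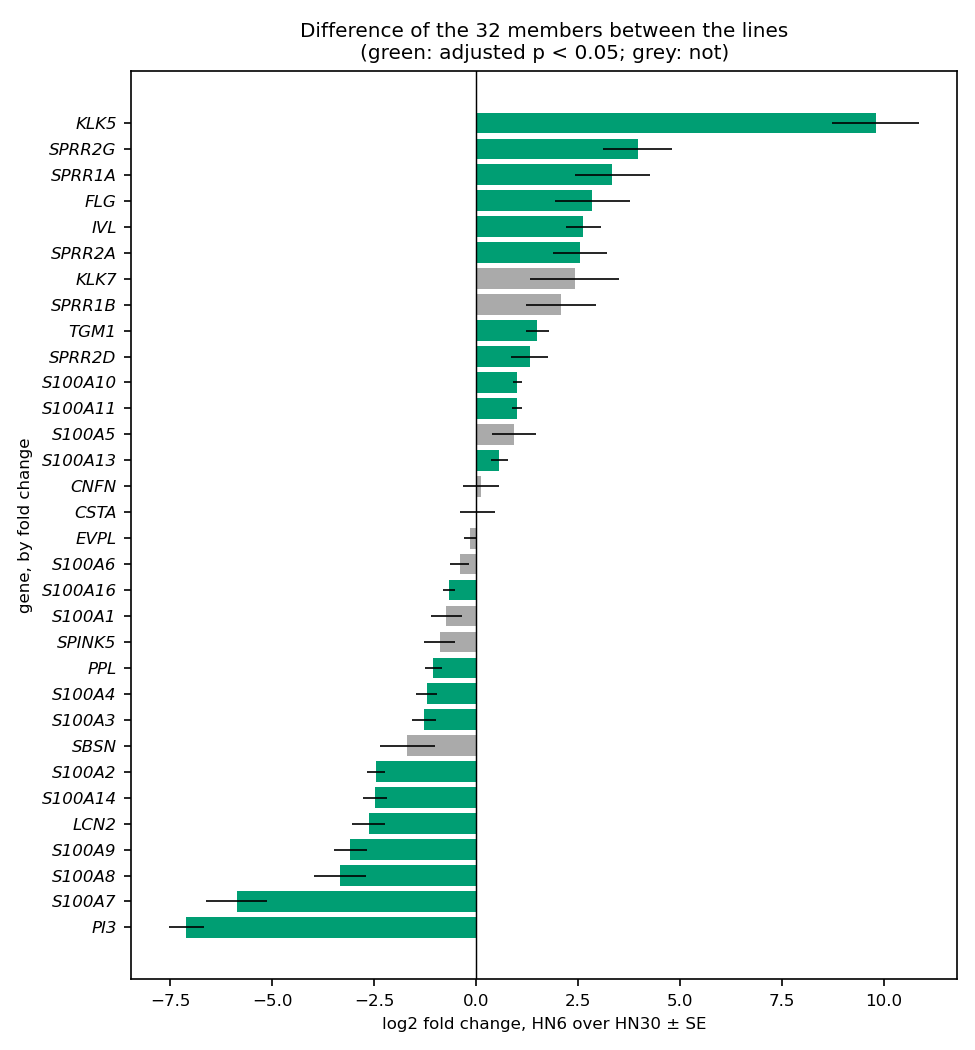
Bars are the log2 fold change of HN6 over HN30 for the 32 tested members with the SE as lines, green where the adjusted p was under 0.05 and grey where not. KLK5 (9.80) and PI3 (-7.11) are at the ends, and the tested SPRR genes and IVL lie on the HN6 side. S100A7, S100A8, S100A9, LCN2, S100A14 and S100A2 lie on the HN30 side.

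FAT1 KD was then compared with NC over both lines, the question of the study. PI3, SBSN and SPRR2G were lower after FAT1 KD and no member was higher, at the thresholds of the study for differentially expressed genes (DEGs), P under 0.05 before adjustment with a log2 fold change beyond 1 in size. Against these 3 of 32 members, 3.13% of the 14105 genes passed, 1.06% of them in the lower direction. None of the 32 had an adjusted p under 0.05 with edgeR, DESeq2 or limma-voom, against 0.532% of genes with edgeR, while 5 had an unadjusted P under 0.05 with edgeR, 5 with DESeq2 and 4 with limma-voom. With limma-voom, the test the study used, S100A8, SBSN, SPRR2D and SPRR2G passed the DEG thresholds, and PI3 (-0.94) did not. Estimates were negative for 24 of 32 members, 75.0% against 47.8% of all genes, and the median log2 fold change was -0.33 against 0.02. In no member did the KD libraries lie apart from NC in both lines, as 2.26% of genes did on the higher and 3.11% on the lower side.

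These results turned on 1 library. HN30 NC repeat 1 was the highest of the 6 HN30 libraries for 18 of the 32 members, against 19.3% of all genes. In counts it held 3269 for PI3 against 900 in NC repeat 2, 105 against 8 for SBSN, 99 against 7 for SPRR1B, 68 against 0 for KLK5 and 149 against 0 for LCE3D. SERPINB2, a protease inhibitor outside the set, was also far apart, with 360 CPM in that library and 3.53 CPM in NC repeat 2. Without HN30 NC repeat 1 none of the members passed.

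SBSN, suprabasin, a secreted protein of differentiating keratinocytes, had 0.409 and 0.338 CPM in the HN6 NC libraries and 0 to 0.318 CPM after FAT1 KD. In HN30 it had 2.97 and 0.202 CPM in NC and 0.0577 to 0.673 CPM after KD. The groups were apart in HN6 and overlapped in HN30, and the log2 fold change of -2.05 ± 0.79 became -0.90 without HN30 NC repeat 1. With the repeat as a block SBSN gave -1.76 and no longer passed (edgeR's adjusted p = 0.37).

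PI3 fell by 1.09 on the log2 scale (SE 0.40, edgeR's adjusted p = 0.237). KD libraries were all below NC in HN6, at 0.111 to 0.286 against 0.366 and 0.409 CPM, but not in HN30, where NC repeat 2 (22.7 CPM) lay within the KD range of 12.6 to 40.9 CPM. The estimate was -0.46 without HN30 NC repeat 1, and the gene also failed the thresholds without HN30 siFAT1-2 repeat 1, and with the repeat as a block, where it was -0.97.

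SPRR2G had 5.39 and 2.28 CPM in HN6 NC, 0.634 and 0.446 with siFAT1-1, and 1.97 and 1.36 with siFAT1-2. The 4 HN6 KD libraries were below both NC libraries. In HN30 it had counts in only 2 libraries, NC repeat 1 (0.793 CPM) and siFAT1-2 repeat 1 (0.173 CPM). The log2 fold change was -2.26 ± 0.86 over both lines and was lost without HN6 NC repeat 1 or HN30 NC repeat 1, at the smallest -1.30. Its neighbour SPRR2D, with 5.05 and 9.10 CPM in HN6 NC and 3.57 and 3.88 CPM in HN30 NC, had an estimate of -1.0 ± 0.46 that just missed the fold threshold, and passed with the repeat as a block (-1.18, edgeR's adjusted p = 0.181).

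Within each line the picture was thinner. In HN6, SPRR2G was the 1 member of 30 that passed (3.08% of genes, 0.888% lower), with a log2 fold change of -1.77 ± 0.65 and an adjusted p of 0.814 by edgeR's test, and it was lost without HN6 NC repeat 1 or HN6 siFAT1-1 repeat 1. In a fit over all 12 libraries SPRR2G (-2.01) was lost within HN6 and S100A8 passed in its place. In HN30, 0 of 29 passed with edgeR (4.0% of genes), 0 had a P under 0.05 before adjustment (9.30% of genes), and DESeq2 called 2 (SBSN and SPRR2D) and limma-voom 1 (SPRR2D). The count in HN30 was 9 without NC repeat 2, when repeat 1 alone stood for NC and was assumed to vary like the other group, and 0 without NC repeat 1. The median was -0.02 in HN6 and -0.49 in HN30, against 0.03 over all genes in each. The 2 NC repeats differed by more than the fitted KD fold change for 20 of 30 members in HN6 and 20 of 27 in HN30. The same share over all genes was not taken, so these counts do not set the members apart from other genes.

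The interaction of line and KD passed for 2 of 34 members, KLK5 (6.09 ± 1.77) and KLK7 (4.66 ± 2.01), against 1.87% of genes. Both are kallikreins that act in the shedding of corneocytes. Neither had an adjusted p under 0.05, the value being 1.0 for both by edgeR's test, and neither passed with limma-voom. KLK7 had 0.136 to 1.29 CPM in HN6, 0.510 CPM in HN30 NC repeat 1 and 0 to 0.0874 CPM in the other HN30 libraries. The estimates turned to -1.94 for KLK5 and -1.47 for KLK7 without HN30 NC repeat 1, and KLK7 passed in only 4 of 12 fits that left out 1 library, those without either HN6 siFAT1-2 repeat, HN30 NC repeat 2 or HN30 siFAT1-2 repeat 2.

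The siRNAs were next taken apart, as they differed for several members. FAT1 itself had a log2 fold change against NC of -2.0 ± 0.32 with siFAT1-1 and -1.27 ± 0.31 with siFAT1-2. For siFAT1-1 against siFAT1-2 it was -0.73 ± 0.31 (edgeR's adjusted p = 0.118). The part of this in the values of the members was not tested. siFAT1-1 and siFAT1-2 were each compared with the same 4 NC libraries, so the values stand side by side and are not independent of each other. IVL was lower with siFAT1-1, and SBSN, PI3, S100A10, S100A8 and S100A9 were lower with siFAT1-2.

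**Figure D4:**
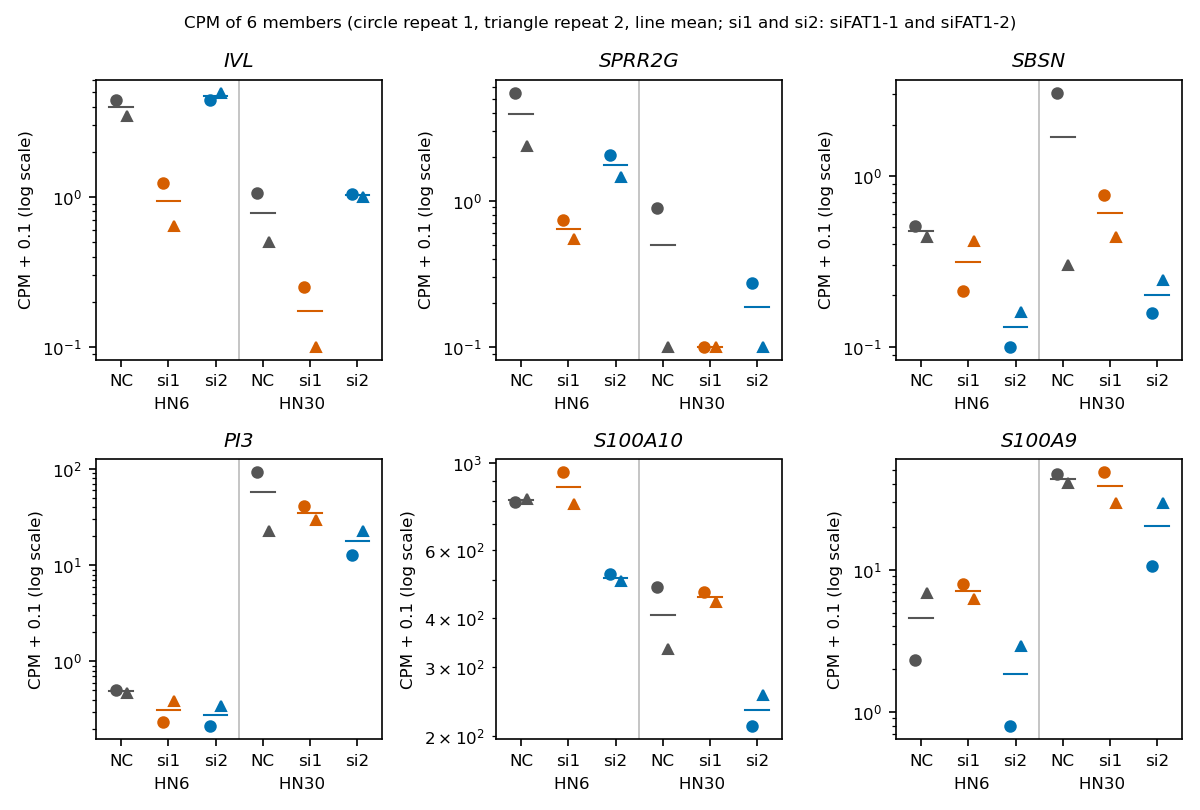
The vertical axis is CPM + 0.1 on a log scale, with repeat 1 as circles, repeat 2 as triangles and the mean as a line, for NC, siFAT1-1 (si1) and siFAT1-2 (si2) in HN6 (left) and HN30 (right) of each panel. IVL is lowest with siFAT1-1 and S100A10 with siFAT1-2 in both lines, and the HN30 NC repeats lie apart for SBSN, SPRR2G and PI3.

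With siFAT1-1, 2 of 32 members passed the thresholds, both lower, against 5.65% of genes, and 2.35% in that direction. IVL had 4.33 and 3.38 CPM in HN6 NC, 1.13 and 0.541 with siFAT1-1 and 4.32 and 4.85 with siFAT1-2. In HN30 it had 0.962 and 0.404 CPM in NC, 0.149 and 0 with siFAT1-1 and 0.952 and 0.903 with siFAT1-2. In each line every siFAT1-1 library was thus below all NC and siFAT1-2 libraries, as held against NC for 10.6% of all genes. The log2 fold change was -2.48 ± 0.54 with edgeR's adjusted p = 0.0271, a level under 0.05 that 3.20% of genes reached. It passed the DEG thresholds in all 12 fits that left out 1 library, at -3.00 to -2.16, and the adjusted p in those fits was 0.0303 to 0.088 and under 0.05 in 8 of them. For siFAT1-2 against NC the IVL value was 0.35 ± 0.48.

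SPRR2G was the other, at -3.38 ± 1.02 with an adjusted p of 0.0982 in edgeR, and 0.0393 with the repeat as a block. Both HN30 siFAT1-1 libraries were at 0, so the size depends on the prior count, and it ran from -3.82 to -2.64 with 1 library left out. With siFAT1-2 it was -1.60 ± 0.91. The other SPRR genes did not pass and had estimates from -1.28 to 0.14 with siFAT1-1. EVPL was higher in every siFAT1-1 than in every NC library of both lines, as were 10.1% of genes, at 179 and 151 against 82.8 and 120 CPM in HN6 and 140 and 157 against 129 and 89.1 CPM in HN30, with a log2 fold change of 0.58 ± 0.19 (edgeR's adjusted p = 0.125). With the block, SPRR2D and LCN2 also passed the thresholds, which made 4.

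With siFAT1-2, 5 of 32 passed, PI3, SBSN, S100A8 and S100A9 lower and SPINK5 higher, against 9.13% of genes, 4.75% lower and 4.38% higher. An adjusted p under 0.05 by edgeR's test was reached by 3 members, SBSN, PI3 and S100A10, all lower, as by 11.6% of genes and 7.30% in that direction, whereas limma-voom left S100A10 alone. The median was -0.53 over the members and 0.0 over all genes, with 25 of 32 estimates negative, 78.1% against 50.2% of all genes. HN30 NC repeat 1 is in this NC group too, and its part in these estimates as a set was not tested.

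S100A10, a partner of annexin A2, was the most abundant of them. It had 797 and 808 CPM in HN6 NC, 948 and 787 with siFAT1-1 and 519 and 498 with siFAT1-2. In HN30 the values were 480 and 334, 467 and 440, and 211 and 254 CPM. All 4 siFAT1-2 libraries were below the other libraries of their line. The log2 fold change was -0.73 ± 0.14 (edgeR's adjusted p = 0.00918), under the fold threshold for a DEG, and the adjusted p stayed at 0.00829 to 0.0353 when each library was left out.

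SBSN fell by 3.75 on the log2 scale with siFAT1-2 (SE 0.90, edgeR's adjusted p = 0.022), from the CPM values above to 2 counts over the HN6 and 7 over the HN30 siFAT1-2 libraries. It passed the DEG thresholds in all 12 fits that left out 1 library, at -4.18 to -2.50, with an adjusted p of 0.00938 to 0.115 that was under 0.05 in 9. PI3 fell by 1.54 (SE 0.46, adjusted p = 0.0483 by edgeR's test), and without HN30 NC repeat 1 it was -0.84 and did not pass. Its adjusted p was under 0.05 in 2 of the 12 fits without 1 library. With the repeat as a block its adjusted p was 0.0764. PI3, S100A10, S100A8 and SBSN were lower in every siFAT1-2 than in every NC library of both lines, as were 12.7% of all genes.

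S100A8 and S100A9 passed only before adjustment. S100A9 had 2.22 and 6.73 CPM in HN6 NC and 0.692 and 2.80 with siFAT1-2, which overlapped, and 46.9 and 40.5 against 10.6 and 29.5 CPM in HN30, which did not. Its log2 fold change was -1.22 ± 0.47 (edgeR's adjusted p = 0.114), lost in 4 of 12 fits without 1 library, those without HN6 NC repeat 2, HN6 siFAT1-2 repeat 1, HN30 NC repeat 1 or HN30 siFAT1-2 repeat 1. S100A8, at no more than 2.26 CPM, had -1.59 ± 0.72 (adjusted p = 0.169) and kept its place only without HN6 siFAT1-1 repeat 1, HN30 NC repeat 2, HN30 siFAT1-1 repeat 2 or HN30 siFAT1-2 repeat 1. SPINK5, the inhibitor LEKTI of the kallikreins, had 1.05 ± 0.47 (adjusted p = 0.163) and kept it only without HN6 NC repeat 1, HN30 NC repeat 2 or HN30 siFAT1-2 repeat 2. S100A8 and SPINK5 were also lost with the repeat as a block, where SPRR2D and SPRR2G passed instead. The summed leukocyte markers were at 5.73 and 5.86 CPM in HN6 NC against 2.47 to 5.75 CPM after KD, and at 8.61 and 10 against 4.70 to 15 CPM in HN30, and their part in the S100A8 and S100A9 values was not tested.

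**Figure D5:**
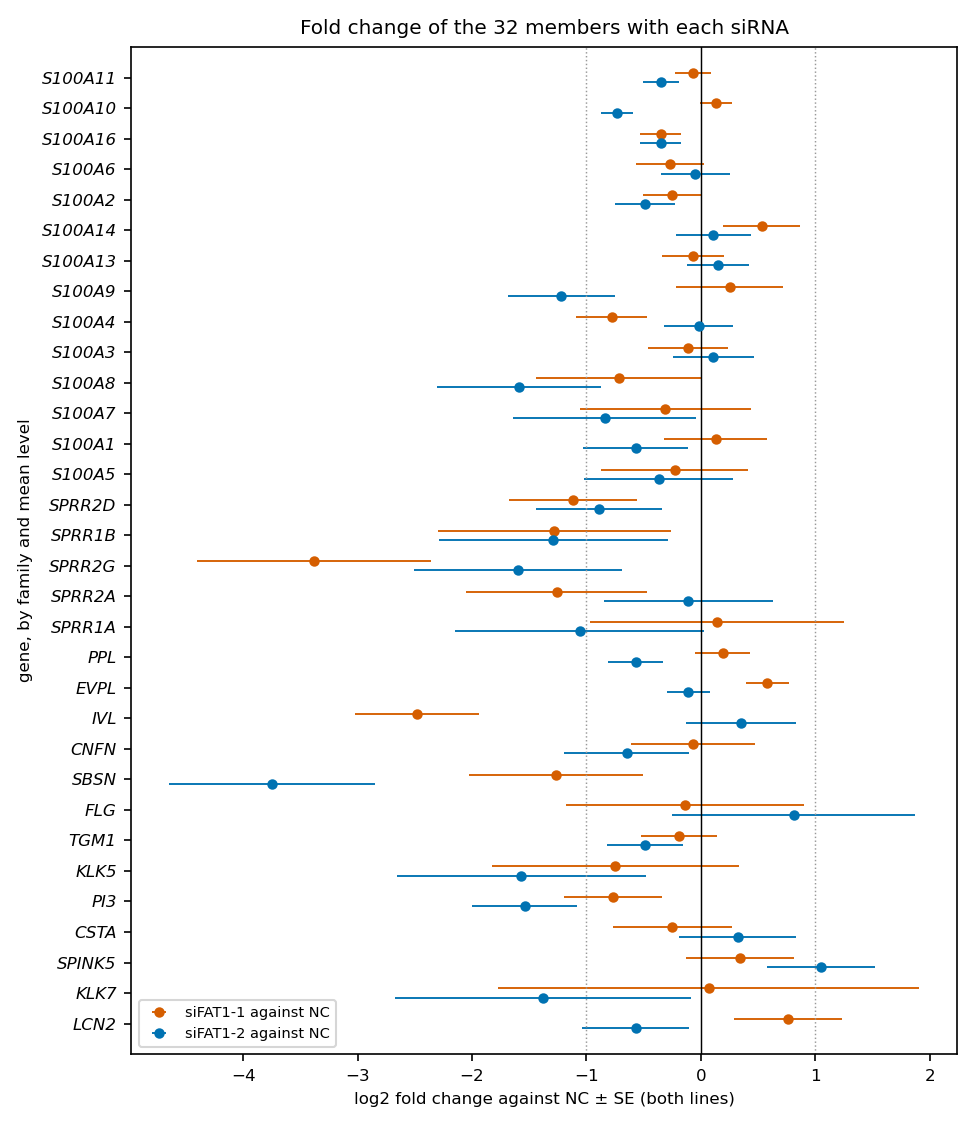
Points are the log2 fold change against NC over both lines with the SE as lines, orange for siFAT1-1 and blue for siFAT1-2, with dotted lines at -1 and 1. The siRNAs are far apart for IVL (-2.48 and 0.35) and close for S100A16 (-0.35 with each), and most points lie left of 0.

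The difference between the siRNAs was tested directly, in a contrast that sets the KD libraries against each other, with the NC libraries in the fit for the spread and the line term. At the DEG thresholds IVL was lower with siFAT1-1 (-2.83 ± 0.54) and SBSN (2.47 ± 0.92), S100A9 (1.48 ± 0.48) and LCN2 (1.33 ± 0.48) were higher with siFAT1-1, 4 of 32 members against 12.5% of genes (7.33% higher and 5.15% lower). At an adjusted p under 0.05 by edgeR's test, the members were IVL (0.00591), S100A10 (0.87 ± 0.14, 0.00296), EVPL (0.69 ± 0.19, 0.0293) and PPL (0.76 ± 0.24, 0.0482), 4 of 32 against 17.0% of genes. A difference was thus no more frequent among the members than among all genes. IVL and S100A10 kept an adjusted p under 0.05 in all 12 fits that left out 1 library, EVPL in 6 and PPL in 3.

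LCN2 had 89.8 and 67.9 CPM with siFAT1-1 and 13.1 and 48.2 CPM with siFAT1-2 in HN6, and 521 and 443 against 91.2 and 300 CPM in HN30. These did not overlap in either line. EVPL, PPL, S100A10, S100A11 and SBSN were also higher in each siFAT1-1 library than in each siFAT1-2 library of both lines, 6 members with LCN2 against 17.9% of genes, and IVL and S100A4 were lower, against 15.8%. LCN2 and S100A9 had adjusted p values of 0.0741 and 0.0532 in edgeR, and 0.0179 and 0.0392 with the repeat as a block. SBSN was lost without HN6 siFAT1-1 repeat 2 or HN30 siFAT1-2 repeat 1. HN6 siFAT1-2 repeat 1 was the lowest HN6 library for 14 of the 32 members, against 25.3% of all genes, among them S100A9, LCN2, SPRR1B and TGM1.

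IVL was set beside the other scaffold and cross-linking genes. With siFAT1-1, IVL fell while EVPL and PPL, plakins of the same scaffold, had estimates of 0.58 and 0.19, TGM1 had -0.19 ± 0.33 and FLG -0.14 ± 1.04. With siFAT1-2 the IVL, EVPL, PPL and TGM1 values were 0.35, -0.11, -0.57 and -0.49. S100A11 and S100A16, among the highest in both lines, had -0.20 ± 0.16 and -0.35 ± 0.16 over both siRNAs. SPRR1B, whose libraries held 0 to 115 counts, had -1.32 ± 0.85, so a change of the same size was less detectable in the low SPRR genes. Fewer cells that express such a gene and less RNA in each cell cannot be told apart in bulk libraries.

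Genes of the same program outside the set were examined in 10 lists. A list of suprabasal keratins, cadherins and other junction genes had 14 tested genes. For FAT1 KD over both lines, at the DEG thresholds, 3 of them were higher, DSG3 (1.32), DSC2 (1.02) and PERP (1.37). The share over all genes in that direction was 2.08%. All 3 are genes of cell junctions, and no keratin of the list passed. DSG3 had 15.3 and 22.0 CPM in HN30 NC against 21.4 to 60.4 CPM after KD, which overlapped. DSC2 overlapped in HN6, at 89.8 and 25.1 against 82.6 to 207 CPM. DSG3 passed with siFAT1-2 (1.72) and not with siFAT1-1. PERP, a desmosomal p53 and p63 target, had 221 and 291 CPM in HN6 NC and 515 to 774 after KD, and 337 and 203 against 620 to 861 CPM in HN30. Its groups did not overlap in either line, and edgeR's adjusted p was 0.0076. Of 15 other transglutaminases and envelope substrates, SCEL, sciellin, was higher (1.51) and CALML5, a calmodulin-like protein of differentiating keratinocytes, was lower (-2.02). SCEL had 1.23 and 0.197 CPM in HN6 NC against 3.98 to 8.31 CPM after KD. In HN30 it had 1.39 and 1.69 CPM in NC against 1.62 to 2.54 CPM after KD, which overlapped. Of 14 epidermal proteases, 1 was higher (TMPRSS11E, 1.72), and 1 of 11 protease inhibitors was lower (SERPINB2, -4.30). TMPRSS11E had 2.45 for siFAT1-2 against NC and -1.77 for siFAT1-1 against siFAT1-2. Apart from PERP, the genes named here had adjusted p values of 0.0904 to 0.26 for KD over both lines by edgeR's test. None of 23 differentiation transcription factors, 11 cornified lipid genes, 12 S100 partners, 7 antimicrobial genes or 3 other genes of the complex passed.

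Between the siRNAs, 6 of 15 transglutaminases and envelope substrates were higher with siFAT1-1, against the same 7.33% of all genes. They were TGM2 (1.17), PADI1 (1.88), PADI2 (1.76), CDSN (1.00), KAZN (1.28) and CALML5 (1.90). Of the basal genes, KRT5 (1.98), KRT15 (1.19), KRT17 (2.82), ITGB4 (1.06) and LAMA3 (1.06) were higher and ITGB1 (-1.37) was lower with siFAT1-1. The other 8 lists had 0 to 3 genes past the thresholds in either direction. The median of the transglutaminases and envelope substrates was 0.87, against -0.02 over all genes. Of 23 differentiation transcription factors, 1 passed lower and 1 higher with siFAT1-2 against NC, beside 4.75% and 4.38% of genes. The higher one was ZNF750 (1.22 ± 0.37, edgeR's adjusted p = 0.0545). The lower one was FOSL1, a subunit of AP-1 (-1.27 ± 0.25, edgeR's adjusted p = 0.00911). FOSL1 had 737 and 540 CPM in HN6 NC against 156 and 281, and 545 and 425 against 198 and 295 CPM in HN30.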

How the data were processed

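Poly(A) RNA of 12 libraries was sequenced. The authors deposited whole-number counts per gene, not normalized. The submitters' processing notes name HISAT2, featureCounts and hg38. The annotation, versions and use of strand are not given in the sources used here. No column of per-sample values was left out.

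Differences were tested with edgeR 4.0.16 (quasi-likelihood test, TMM factors of 0.897 to 1.06, low genes removed by filterByExpr at a minimum of 10 counts) on the whole table, with Benjamini-Hochberg adjustment over all genes tested (14105 in fits of both lines) and cell line as a term. DEGs had P under 0.05 before adjustment and a log2 fold change beyond 1 in size. DESeq2 1.42.0, limma-voom (limma 3.58.1), other scaling, no filter, a replicate block and leaving out each library were alternatives, in R 4.3.3. The fit was tested on simulated data. The p-values measure the spread of libraries around each fit. Beside the spread between the 2 repeats per condition, this holds differences that a fit has no term for. Fits with 1 KD term have none for the difference between the siRNAs. Fits of both lines, apart from the interaction, have none for a response that differs between the lines.

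The titles number the repeats as a first and a second time. They do not say whether same-numbered libraries of a line were handled together, so a pairing is possible but not stated. The main fits did not pair the repeats, and the replicate block, which changed some calls, was an alternative. Deviations of same-numbered libraries correlated at 0.0747 to 0.233 in HN6 and -0.0293 to 0.401 in HN30.

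CPM are TMM-normalized, and CPM per kb used canonical transcripts of GENCODE 44 (GRCh38), which matched all 59 members by symbol. Promoters were from RefSeq (GRCh38.p14). Named with values were members past the DEG thresholds in any KD comparison, the 8 highest in each line's NC, the 10 with the largest difference between lines, and near-identical copies. Other named members were chosen after their values were seen. The members and lists were chosen with earlier results of these data known. The counts over the list of basal genes are not reported here.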

Additional observations from a re-analysis of the deposited data

Results flagged for a closer look

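In groups of 4 KD libraries of a line, 59 checks for a single library far from the other 3 were made, and chance flags about 1 in 20. S100A1 had 0.764 CPM in HN6 siFAT1-1 repeat 2 against 0.249 to 0.271 CPM in the other HN6 KD libraries. CNFN, cornifelin, had 0.175 CPM in HN30 siFAT1-2 repeat 2 against 1.04 to 1.17 CPM. SPRR1B was at 0.0 CPM in HN30 siFAT1-1 repeat 1 against 0.291 to 0.370 CPM, the limit that 3 counts allow in that library being 0.112 CPM. S100A2 had 18.7 CPM in HN6 siFAT1-2 repeat 1 against 31.8 to 34.6 CPM.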

How the results depend on the processing

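With 1 library left out at a time, 0 to 4 members passed for FAT1 KD over both lines (3 with all libraries), 0 to 3 within HN6 (1), 0 to 9 within HN30 (0), 2 to 6 for siFAT1-1 (2), 1 to 7 for siFAT1-2 (5), 3 to 6 between the siRNAs (4), 1 to 3 for the interaction (2) and 19 to 23 between the lines (19). Without HN30 NC repeat 1 the interaction turned to -1.94 for KLK5 and -1.47 for KLK7, and the highest values, 8.49 and 7.53, came without HN30 siFAT1-1 repeat 2 and HN30 siFAT1-2 repeat 2. The counts farthest from the full fit came without HN30 NC repeat 1 (0 for KD, 1 for siFAT1-2) or HN30 NC repeat 2 (9 within HN30, 6 for siFAT1-1, where SPRR2E and LCE3D entered the test). Other settings moved the count by over 1.5 times as follows. With no filter on low counts it was 5 for KD over both lines, 1 within HN30 and 5 for siFAT1-1, and without the cell line term it was 1 for KD over both lines. Within HN30, DESeq2's Wald test gave 2, limma-voom 1 and a fit over all 12 libraries 6. limma-voom gave 0 for the interaction, and the 4 NC libraries alone gave 4 between the lines (PI3, S100A2, S100A7 and S100A9). The cause of these moves was not tested.

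With the repeat as a replicate block, 1 member passed within HN30 (SPRR2D), 4 for siFAT1-1 and 1 for the interaction (KLK5). Beyond the calls named in the results, the block brought SPRR2G past the thresholds between the siRNAs and S100A11 between the lines (1.01), and it changed no other call among members. The depth set a limit of 0.0679 to 0.112 CPM, and 27 members were too low to be tested in the fits of both lines.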
